A study of Homo sapiens with 4 samples.

Results

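Divergent transcripts are non-coding RNAs that start close to the start of a neighbouring gene and run away from it on the opposite strand, and their genes carry the name of that neighbour followed by -DT. The rule for the promoters described here used gene names and chromosomes, but the class was proposed with results from these data in view. The rule took the rows of the promoter count table whose Entrez identifier had a -DT symbol on chromosomes 1 to 5. It gave 146 promoters of 28775 in the table. Another 247 -DT rows lay on other chromosomes. Each of the 146 was set beside the row of its partner, the gene whose symbol remains once -DT is removed, and all 146 partners were present. Chromosome 1 held 40 of them, chromosome 2 held 30, chromosome 3 held 20, and chromosomes 4 and 5 held 28 each. All 146 were annotated as long non-coding RNA genes.

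The measurements came from ATAC-seq, in which Tn5 transposase cuts accessible DNA and tags the cut ends for sequencing. HEK293T cells, a human kidney-derived line transformed with viral genes, were wild type for their own MORC2 gene in all 4 libraries. In the control group (n = 2) the cells were given lipofectamine, a transfection reagent, and in the overexpression group (n = 2) they were transfected with MORC2, an ATPase of the GHKL family that binds and compacts DNA, which the study's methods describe as a plasmid-borne fusion to a green fluorescent protein. No source used here names an empty plasmid in the control, so transfected DNA and MORC2 cannot be told apart, and nothing states how many cells of a dish took up the plasmid. The comparison asks whether more MORC2 alters accessibility. The count of a promoter in a bulk library also cannot separate fewer accessible cells from less accessibility per cell.

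Transcription from most active human promoters begins in both directions, from separate start sites at the edges of a shared nucleosome-depleted region. The upstream RNA is usually short, ends early at polyadenylation signals and is degraded by the nuclear exosome, whereas the RNA of the coding direction is protected by U1 snRNP and elongates. An accessible region between a pair of divergent starts therefore serves both transcripts. Such shared promoters are commonly rich in CpG and poor in TATA boxes.

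The base sequences show how closely the paired starts lie. RefSeq promoter windows of 300 bases on GRCh38.p14, from 250 bases before a start to 50 after it, were matched by Entrez identifier to 124 of the 146 -DT genes. For 117 pairs both windows were found. In all 117 pairs the genes lay on opposite strands. The accessibility counts were made on another assembly, T2T-CHM13, so the coordinates printed here place the annotated starts and not the counted windows. The windows of IBA57-DT (chr1:228165463-228165762, minus strand) and IBA57 (chr1:228165554-228165853, plus strand) are shown because this pair had the highest control level of all 146 -DT promoters. Those of RNASEH1-DT (chr2:3558136-3558435, plus strand) and RNASEH1 (chr2:3558284-3558583, minus strand) are shown because the rows of this pair had identical counts. Each is written 5′ to 3′ on its own strand, with the bases that the pair's windows share in capitals, so the capitals of one are the reverse complement of the capitals of the other.
IBA57-DT: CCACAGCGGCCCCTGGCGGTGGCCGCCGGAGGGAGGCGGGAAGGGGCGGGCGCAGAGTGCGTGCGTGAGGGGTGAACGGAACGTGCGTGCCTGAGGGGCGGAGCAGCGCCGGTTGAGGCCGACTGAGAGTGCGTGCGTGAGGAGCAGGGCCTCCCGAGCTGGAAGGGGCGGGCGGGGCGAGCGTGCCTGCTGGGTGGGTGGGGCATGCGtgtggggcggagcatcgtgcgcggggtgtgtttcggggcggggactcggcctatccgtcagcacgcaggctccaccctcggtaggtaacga
IBA57: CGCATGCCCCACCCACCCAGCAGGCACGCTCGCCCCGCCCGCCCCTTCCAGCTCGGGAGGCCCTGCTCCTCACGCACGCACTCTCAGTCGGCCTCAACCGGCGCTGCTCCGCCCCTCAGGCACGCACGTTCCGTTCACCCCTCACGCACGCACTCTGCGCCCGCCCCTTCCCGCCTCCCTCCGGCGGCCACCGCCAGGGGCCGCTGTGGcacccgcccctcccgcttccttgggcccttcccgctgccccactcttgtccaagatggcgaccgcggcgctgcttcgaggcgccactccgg
RNASEH1-DT: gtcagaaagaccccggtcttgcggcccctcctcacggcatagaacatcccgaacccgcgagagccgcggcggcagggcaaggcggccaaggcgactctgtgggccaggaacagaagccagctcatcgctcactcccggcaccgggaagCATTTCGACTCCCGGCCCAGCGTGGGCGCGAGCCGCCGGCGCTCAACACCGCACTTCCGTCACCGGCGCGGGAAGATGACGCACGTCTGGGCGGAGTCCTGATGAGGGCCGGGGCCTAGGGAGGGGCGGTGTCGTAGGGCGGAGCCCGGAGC
RNASEH1: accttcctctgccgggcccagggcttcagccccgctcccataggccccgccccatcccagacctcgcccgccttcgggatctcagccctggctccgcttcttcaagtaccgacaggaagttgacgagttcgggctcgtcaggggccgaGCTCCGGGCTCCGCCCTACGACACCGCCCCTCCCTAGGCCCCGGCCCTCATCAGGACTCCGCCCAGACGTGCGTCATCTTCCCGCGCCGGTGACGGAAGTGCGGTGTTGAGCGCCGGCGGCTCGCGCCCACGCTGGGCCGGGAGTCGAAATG
The IBA57 windows shared 209 bases with 292 bases between the starts, and the RNASEH1 windows shared 152 bases with 53 bases between the starts. Of the 300 bases, 73.3% were G or C in the IBA57-DT window and 70.3% in the RNASEH1-DT window, and both windows held 35 CpG dinucleotides.

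A pair whose starts lie apart can look different. CNNM3-DT (chr2:96813608-96813907, minus strand) and CNNM3 (chr2:96816018-96816317, plus strand) have starts 2611 bases apart and share no base, so their windows are printed without capitals.
CNNM3-DT: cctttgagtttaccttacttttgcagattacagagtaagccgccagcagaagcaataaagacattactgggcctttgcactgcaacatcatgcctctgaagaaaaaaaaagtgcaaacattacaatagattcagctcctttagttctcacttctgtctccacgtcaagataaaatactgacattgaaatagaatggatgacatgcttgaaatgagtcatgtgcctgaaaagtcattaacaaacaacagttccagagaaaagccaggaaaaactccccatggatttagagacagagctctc
CNNM3: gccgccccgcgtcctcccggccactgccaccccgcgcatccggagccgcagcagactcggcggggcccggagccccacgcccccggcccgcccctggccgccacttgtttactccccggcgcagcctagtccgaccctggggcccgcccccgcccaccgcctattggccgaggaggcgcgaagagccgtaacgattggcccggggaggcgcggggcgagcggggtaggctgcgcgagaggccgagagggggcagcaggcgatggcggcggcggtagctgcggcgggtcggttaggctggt
The CNNM3-DT window was 39.7% G or C with 2 CpG dinucleotides, against 77.7% and 41 in the window of CNNM3, which encodes a membrane protein of the family linked to magnesium transport. Other pairs with starts at least 2000 bases apart did not share this contrast. The -DT window was richer in G and C at ATP13A3-DT (74.3% against 28.3%), LEMD1-DT (56.7% against 40.3%) and PRICKLE2-DT (73.3% against 53.3%). At GPM6A-DT the windows were alike (36.0% against 36.7%).

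Across the 117 pairs the median distance between starts was 154 bases (quartiles 105 and 278). The windows of 100 pairs shared bases, with a median of 207 shared bases over all 117 pairs, and 17 pairs shared none. In 6 pairs the distance was negative, which means that the 5′ ends of the transcripts overlap.

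In base composition the -DT windows resembled those of their partners. The median share of G and C was 67.7% over the 124 -DT windows, 66.7% over the 117 partner windows and 58.7% over all 35116 RefSeq promoter windows. The median number of CpG dinucleotides was 29.5, 28 and 14 in the same order. More than 50% G and C together with a ratio of observed to expected CpG above 0.6, a common mark of a CpG island, was met by 89.5% of the -DT windows, 89.7% of the partner windows and 46.8% of all windows.

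Letters of known promoter motifs were counted on both strands of these windows. The GC box GGGCGG, bound by SP and KLF factors, was present in 75.8% of the -DT windows and 45.0% of all windows. The ETS motif CCGGAAG was present in 21.0% and 10.3%, and the NRF1-type motif GCGCATGC in 7.26% and 3.05%. The TATA box TATAAA was present in 6.45% of the -DT windows and 11.5% of all windows. Shares were nearer to each other for the CCAAT box CCAAT (33.9% and 34.6%), the YY1-type motif ATGGCGG (7.26% and 5.55%), the E-box CACGTG (8.06% and 7.26%) and the cyclic AMP response element TGACGTCA (2.42% and 1.85%). None of these motifs contains another, although neighbouring matches can share end bases, and a match of letters is not evidence that a factor was bound. Because the windows of most pairs overlap, the -DT and partner shares rest largely on the same DNA.

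Depth limited the overexpression libraries. Total promoter counts ranged from 3734519 to 10255182, and the median -DT promoter of chromosomes 1 to 5 had 307.5 and 226 counts in the control libraries against 106.5 and 54 in the overexpression libraries. The 146 promoters took 1.01% and 0.986% of the nuclear promoter counts in control and 0.950% and 0.903% in overexpression. Mitochondrial promoters took 51.9% and 55.6% of all counts in control and 74.7% and 73.8% in overexpression. As a check of the line, 6 genes listed as markers of HEK293T cells (VIM, KRT8, KRT18, NES, NEFM and NEFL) had control levels from 5.96 to 51.4, of which KRT8 (5.96), KRT18 (6.50) and NEFM (6.99) lay under the median of all promoters (7.09), whereas 4 genes of other lineages (PTPRC, CD3E, ALB and CDH5) had levels from 0.226 to 3.58. All levels are in CPM, counts scaled to a library total of 1000000 after TMM normalisation, as the mean of the 2 control libraries unless a library is named.

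The -DT promoters were open in control cells. Their median control level was 21.5 CPM (quartiles 14.0 and 33.4), against 7.09 CPM over all 28775 promoters and 12.6 CPM over 19324 protein-coding promoters. Long non-coding RNA genes without a -DT name (5282 rows) had a median of 1.89 CPM. The partners had a median of 22.0 CPM, and the 247 -DT promoters of other chromosomes a median of 17.4 CPM. Of the 146, 126 (86.3%) lay above the median of all promoters, and 77 (52.7%) lay above the upper quartile of 19.9 CPM. Because the name of a -DT gene already ties it to a neighbouring gene, these levels describe the class and carry no test.

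**Figure D1:**
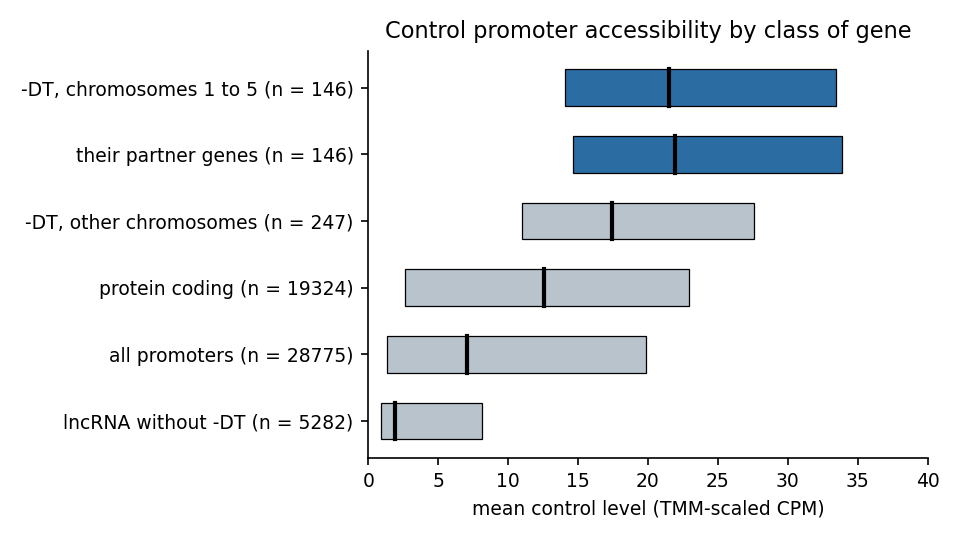
Mean control accessibility in TMM-scaled CPM (horizontal axis) for 6 classes of promoter, where a bar spans the quartiles and the black line is the median. The -DT promoters of chromosomes 1 to 5 and their partners, with medians of 21.5 and 22.0 CPM, lie above the other classes, and long non-coding RNA genes without a -DT name lie lowest at 1.89 CPM.

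By chromosome the median control level of the -DT promoters was 25.9 CPM on chromosome 1, 20.5 on chromosome 2, 19.1 on chromosome 3, 21.9 on chromosome 4 and 20.7 on chromosome 5.

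The most accessible -DT promoter was that of IBA57-DT, beside the gene of a mitochondrial iron-sulfur cluster assembly factor, with 89.9 CPM ± 1.23 (SD, n = 2). TMEM18-DT, beside a gene of a nuclear envelope protein, followed with 77.2 CPM ± 3.27, and JUN-DT, beside the gene of an AP-1 transcription factor subunit, with 73.4 CPM ± 1.91. IBA57-DT lay above both by more than the spread of the control libraries, whereas the lower control library of TMEM18-DT (74.9 CPM) and the higher of JUN-DT (74.8 CPM) nearly touched. LMNB1-DT (56.5 CPM ± 2.39), PPP3CA-DT (56.3 CPM ± 1.01) and CAMTA1-DT (55.4 CPM ± 2.28) came next and did not differ beyond their spread. Their partners encode lamin B1, the catalytic subunit of calcineurin and a calmodulin-binding transcription activator.

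At the other end, 16 of the 146 had under 5 CPM in control (11.0%, against 45.8% of all promoters). For 13 of these the partner was also under 5 CPM. The lowest among those with enough counts to test were CAPSL-DT (1.10 CPM), IRX2-DT (1.70 CPM) and OSMR-DT (1.73 CPM). Their counts were low in every library: CAPSL-DT had 16 and 11 in control and 7 and 3 in overexpression, and IRX2-DT had 14 and 25 in control and 8 and 9 in overexpression. IRX2 is a homeobox factor and OSMR is the oncostatin M receptor. Of the 11 low promoters with a window, 6 met the CpG island measure given above, compared with 105 of the 113 others.

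Grouped by what the partner is known to do, 94 of the 146 fell into 8 groups that were drawn up after the values had been seen, and 52 were left out of any group. The highest median control level was that of the 6 promoters beside cell cycle and nuclear envelope genes (34.3 CPM), followed by 8 beside genes for transport of solutes (33.5 CPM) and 20 beside transcription and chromatin genes (26.9 CPM). The first of these groups is not complete, because TMEM18-DT, beside a gene of a nuclear envelope protein, was left out of every group. The lowest median was that of 12 beside neuronal and adhesion genes (7.23 CPM), which ran from GPM6A-DT at 0.358 CPM to PCDH10-DT at 28.9 CPM. The ranges of all 8 groups overlapped. Within the transcription group the levels ran from 1.70 CPM at IRX2-DT to 73.4 CPM at JUN-DT, and within the 10 beside mitochondrial genes from 11.1 CPM at MRPL20-DT to 89.9 CPM at IBA57-DT.

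A -DT promoter and its partner were close to the same measurement. In 134 of 146 pairs (91.8%) the higher control level exceeded the lower by under 25%, and in 122 pairs by under 5%. The counts were identical in all 4 libraries for 8 pairs and in at least 1 library for 97. RNASEH1-DT and RNASEH1, for example, each counted 466 and 290 fragments in control and 113 and 59 after overexpression. DLX2-DT, beside a homeobox gene, had 682, 511, 237 and 131 counts in the same order, and DLX2 had 682, 511, 237 and 133. ANKRD13C-DT and TSNAX-DT also had a control ratio of 1 to their partners. The study's methods define a promoter by 2 kb around a start. If the deposited counts cover that stretch, which is an assumption, the rows of starts that lie close together count many of the same fragments, so the rows of a pair are not treated here as independent measurements.

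**Figure D2:**
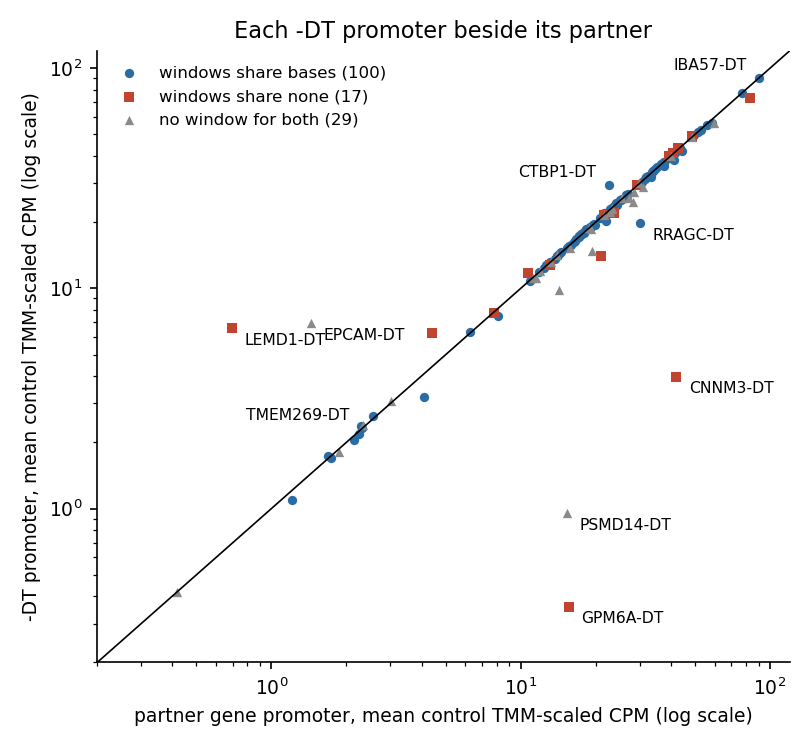
Control level of each -DT promoter (vertical axis) against that of its partner (horizontal axis), both in TMM-scaled CPM on log scales, with the line of equality. Of 146 pairs, 134 lie within 25% of the line, and LEMD1-DT, EPCAM-DT, CNNM3-DT, PSMD14-DT and GPM6A-DT stand far from it.

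Distance between annotated starts went with how alike the rows were. Under the assumption above, rows of starts under 2000 bases apart can count the same fragments, so their likeness is not a separate result. With under 200 bases between the annotated starts, 67 of 69 pairs differed by under 25%. From 200 to 500 bases it was 33 of 34, and from 500 to 2000 bases 8 of 9. At 2000 bases or more, 1 of 5 pairs did, which was ATP13A3-DT with a ratio of 0.974. Its annotated start lies 18755 bases from that of ATP13A3. In control and then overexpression it counted 178, 134, 63 and 33, against 185, 136, 68 and 33 for ATP13A3. That distance may therefore not be the one between the counted windows. Where a gene had several annotated starts the nearest pair was taken, since the starts that the study used are not given in the sources used here.

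**Figure D3:**
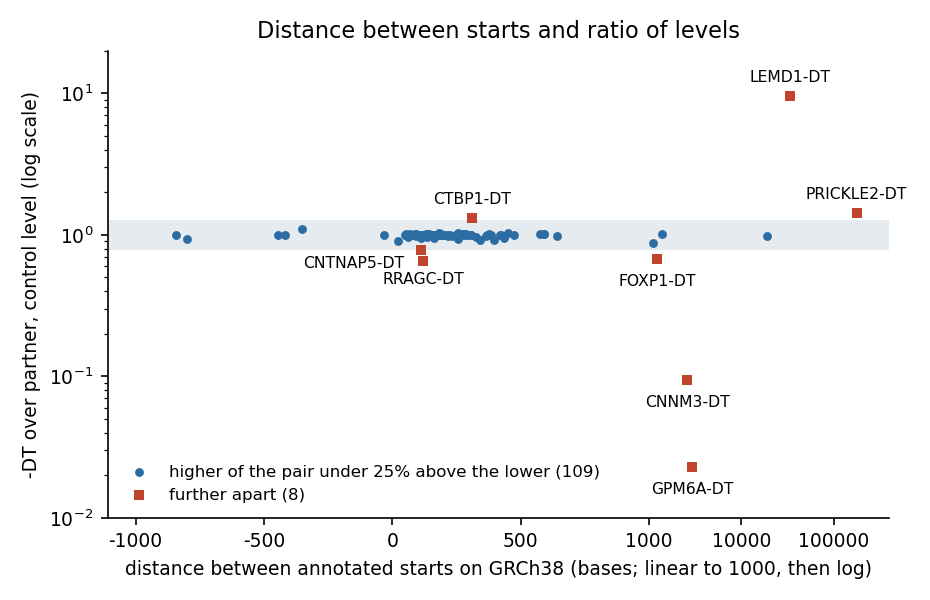
Ratio of the control level of a -DT promoter to that of its partner (vertical axis, log scale) against the distance between their annotated starts on GRCh38 (horizontal axis, in bases) for 117 pairs, with the band of under 25% shaded. LEMD1-DT, PRICKLE2-DT, CNNM3-DT and GPM6A-DT, with starts at least 2000 bases apart, lie outside the band.

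The pairs that did differ were few. In 4 of the 12 pairs that differed by 25% or more, the -DT promoter was higher. LEMD1-DT, whose start lies 34002 bases from that of LEMD1, counted 92, 69, 34 and 28 fragments in control replicates 1 and 2 and overexpression replicates 1 and 2, and LEMD1 counted 10, 7, 5 and 4. The control ratio was 9.52, and the counts of the pair did not overlap in any library. EPCAM-DT counted 89, 79, 42 and 20 in the same order, against 27, 10, 10 and 6 for EPCAM, an epithelial adhesion molecule, a control ratio of 4.83. PRICKLE2-DT (ratio 1.42) and CTBP1-DT (ratio 1.31) were higher than genes for a planar cell polarity protein and a transcriptional corepressor. For CTBP1-DT the starts were only 310 bases apart, and the -DT row had 435 and 289 control counts against 347 and 211. EDIL3-DT, next in order, was at 1.10 and within the limit.

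In the other 8 pairs the -DT promoter was lower. CNNM3-DT, printed above, counted 63, 36, 30 and 10, and CNNM3 counted 582, 443, 254 and 135, a control ratio of 0.0946. PSMD14-DT had 12, 11, 4 and 1 counts and PSMD14, a deubiquitinase of the proteasome lid, had 194, 174, 84 and 33. GPM6A-DT had 6, 3, 1 and 1 counts and GPM6A, a neuronal membrane glycoprotein, had 237, 148, 78 and 36. Each of these 3 partners was far above its -DT row in every library. RRAGC-DT (ratio 0.658, beside a Rag GTPase of nutrient signalling), FOXP1-DT (0.671) and PRDM16-DT (0.690, both beside transcription factors) were lower by less. The ratios in overexpression were 0.621, 0.635 and 0.651 for these 3 pairs.

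After MORC2 overexpression, 9 of the 143 -DT promoters with enough counts to test passed an adjusted p of 0.05, 1 higher and 8 lower. RGPD4-DT, PSMD14-DT and GPM6A-DT had too few counts. Over all 23407 promoters tested, 2.47% passed, 1.16% higher and 1.30% lower, so that 6.29% of the tested -DT promoters stand beside 2.47%. Of 241 tested -DT promoters of other chromosomes 7 passed (2.90%), all lower. The class of promoters was proposed with results of this contrast in view, IBA57-DT among them, so these counts are a description and nothing is read from their size. P-values are from the quasi-likelihood F-test of edgeR with Benjamini-Hochberg adjustment over all tested promoters. They rest on a spread between these libraries that was shared between promoters, and not on the spread of each promoter alone. The labels do not say whether the libraries came from separate cultures, and the study's supplement speaks of biological replicates for its ATAC-seq.

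IBA57-DT (Entrez 574432) had 90.7 and 89.0 CPM in control and 65.8 and 57.6 CPM in overexpression. The groups did not overlap (log2 fold change −0.52, SE 0.0967, adjusted p = 3.23e-05). RNASEH1-DT (Entrez 100506054), beside the gene of a ribonuclease that degrades the RNA of RNA-DNA hybrids, had 33.2 and 27.9 CPM in control and 21.1 and 20.2 CPM in overexpression. Here too each overexpression value was under each control value (log2 fold change −0.57, SE 0.134, adjusted p = 0.00491), as was so at 24.9% of all tested promoters.

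TMEM18-DT (Entrez 105373354) and FBXO38-DT (Entrez 102546294) passed with smaller margins. Their windows (TMEM18-DT, chr2:677122-677421, plus strand; FBXO38-DT, chr5:148383801-148384100, minus strand) are shown with that of TMEM269-DT (chr1:42784846-42785145, minus strand), the -DT promoter that rose, and capitals mark the bases shared with the partner's window.
TMEM18-DT: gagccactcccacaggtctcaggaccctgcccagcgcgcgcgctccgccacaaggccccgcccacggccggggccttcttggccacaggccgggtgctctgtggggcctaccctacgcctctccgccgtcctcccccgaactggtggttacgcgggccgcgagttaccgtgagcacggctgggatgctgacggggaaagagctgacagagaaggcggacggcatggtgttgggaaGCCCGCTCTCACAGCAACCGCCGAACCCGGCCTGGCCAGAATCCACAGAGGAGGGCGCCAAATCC
FBXO38-DT: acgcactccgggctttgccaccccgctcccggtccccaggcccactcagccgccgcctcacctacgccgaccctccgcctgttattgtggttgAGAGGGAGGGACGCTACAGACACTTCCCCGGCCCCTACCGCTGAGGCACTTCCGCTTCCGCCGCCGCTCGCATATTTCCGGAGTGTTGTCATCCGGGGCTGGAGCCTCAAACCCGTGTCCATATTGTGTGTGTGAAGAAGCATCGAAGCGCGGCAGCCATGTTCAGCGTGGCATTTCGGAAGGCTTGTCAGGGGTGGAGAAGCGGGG
TMEM269-DT: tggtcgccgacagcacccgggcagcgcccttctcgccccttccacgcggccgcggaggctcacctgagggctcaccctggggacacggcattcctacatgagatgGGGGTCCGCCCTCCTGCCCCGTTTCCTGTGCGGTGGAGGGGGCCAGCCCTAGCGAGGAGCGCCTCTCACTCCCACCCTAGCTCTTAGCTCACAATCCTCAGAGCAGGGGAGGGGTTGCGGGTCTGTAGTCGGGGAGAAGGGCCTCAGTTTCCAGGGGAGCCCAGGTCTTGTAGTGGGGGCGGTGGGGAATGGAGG
In TMEM18-DT the 5′ ends of the pair overlap by 34 bases and the windows share 65. FBXO38-DT shares 207 bases with the window of FBXO38, an F-box protein of a ubiquitin ligase, and TMEM269-DT shares 195 with that of TMEM269. The TMEM269-DT window was as rich in G and C (67.7%) as the median -DT window but held 18 CpG dinucleotides.

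TMEM18-DT had 79.5 and 74.9 CPM in control and 63.2 and 59.3 CPM in overexpression (log2 fold change −0.33, SE 0.0978, adjusted p = 0.0424). FBXO38-DT had 23.7 and 27.3 CPM in control and 17.3 and 19.5 CPM in overexpression (log2 fold change −0.48, SE 0.141, adjusted p = 0.0384). TMEM269-DT (Entrez 105378683) had 2.71 and 1.92 CPM in control and 5.41 and 4.11 CPM in overexpression. In counts these were 38 and 20 against 29 and 12, so that the rise (log2 fold change 1.06, SE 0.323, adjusted p = 0.0474) appears only once the libraries are scaled and rests on a mean of 24.8 counts.

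Another 4 fell close to the threshold. SLC20A1-DT, beside a sodium-dependent phosphate transporter gene, had 27.1 and 24.1 CPM in control and 20.1 and 16.1 CPM in overexpression (log2 fold change −0.47, adjusted p = 0.0424). GPR155-DT, beside the gene of a lysosomal cholesterol sensor, had 25.6 and 25.8 against 19.8 and 16.8 CPM (log2 fold change −0.46, adjusted p = 0.0455). CPEB2-DT, beside a gene for a cytoplasmic polyadenylation element binding protein, had 44.7 and 39.8 against 33.9 and 30.5 CPM (log2 fold change −0.38, adjusted p = 0.0483). NUP133-DT, beside a nuclear pore subunit gene, had 32.3 and 31.4 against 24.0 and 23.6 CPM (log2 fold change −0.42, adjusted p = 0.0489). In none of these did the groups overlap. Both overexpression values were under both control values at 24.9% of all tested promoters too, and at 50.4% in the highest of 4 bins by mean level. Just outside the threshold stood ODC1-DT, beside the ornithine decarboxylase gene, at −0.37 on the log2 scale (adjusted p = 0.0610), and LMNB1-DT with −0.31 (adjusted p = 0.0841).

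**Figure D4:**
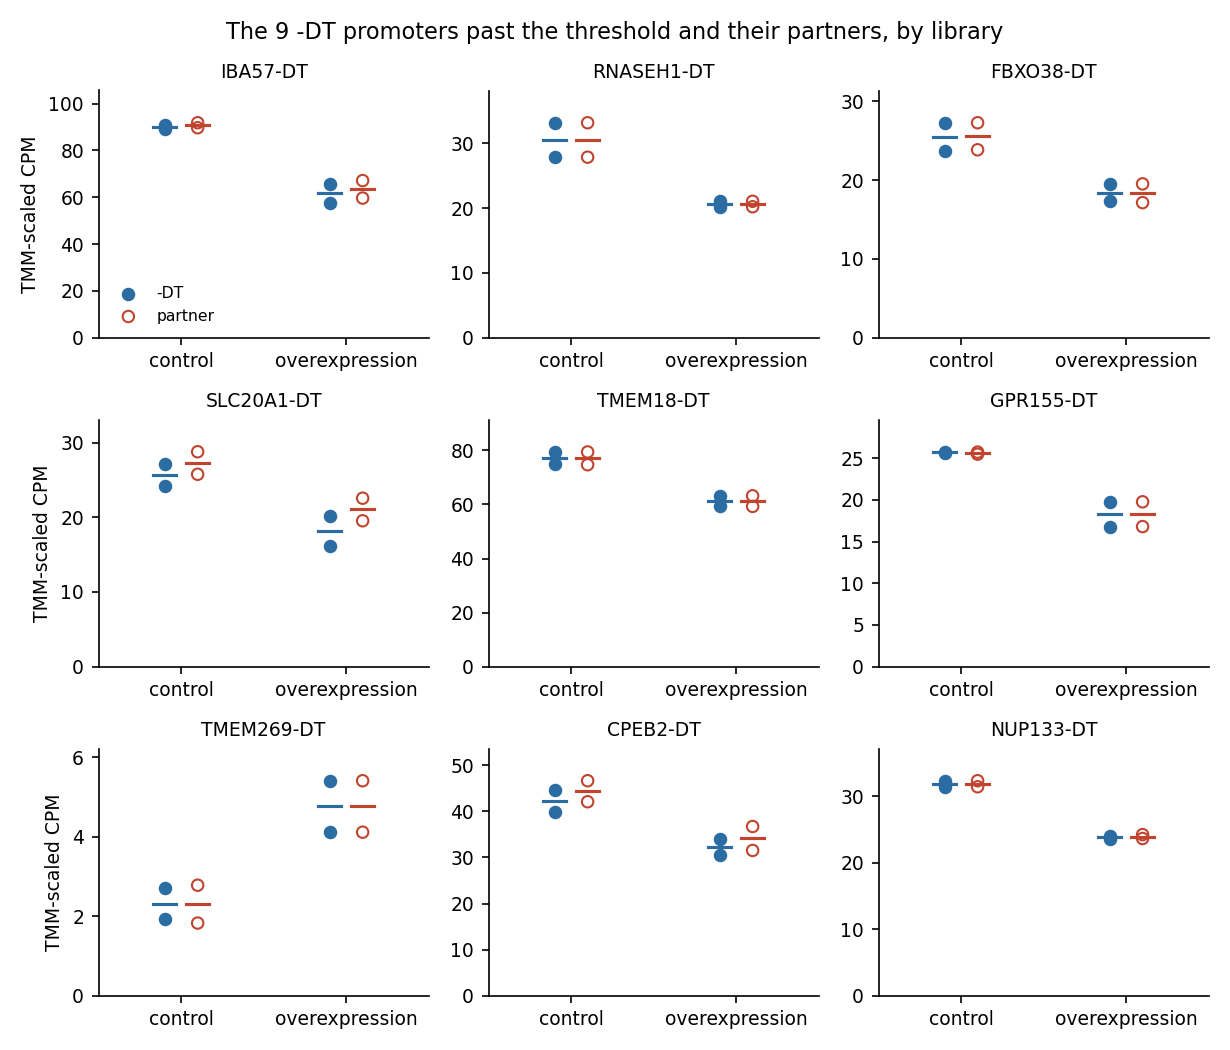
Accessibility of the 9 -DT promoters past the threshold (filled circles) and of their partners (open circles) in TMM-scaled CPM on linear axes from 0, with 2 control and 2 overexpression libraries each and short lines at the group means. IBA57-DT lies at 89.0 and 90.7 CPM in control and at 57.6 and 65.8 CPM in overexpression, TMEM269-DT is the panel that rises, and the circles of each pair nearly coincide.

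The partners of 6 of the 9 also passed: IBA57, RNASEH1, FBXO38, TMEM18, GPR155 and TMEM269. These were 4.17% of the 144 tested partners, beside 2.47% of all promoters. The partners of the remaining 3 had the same sign and missed the threshold, with adjusted p = 0.0542 for NUP133, 0.0589 for CPEB2 and 0.127 for SLC20A1. No partner passed alone. Over the 142 pairs with both rows tested, the median of the -DT log2 fold change minus that of the partner was −0.00039, and the difference ran from −0.24 at EPCAM-DT to 0.17 at S1PR1-DT. As the rows of a pair can share fragments, this closeness is not a second measurement of the changes.

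The calls rested on all 4 libraries together, among all promoters as among the -DT promoters. The share of all promoters past the threshold was 0.572% without control replicate 1, 0.854% without control replicate 2, 0.473% without overexpression replicate 1 and 0.404% without overexpression replicate 2. Leaving out control replicate 1 kept IBA57-DT alone, and leaving out control replicate 2 kept IBA57-DT and RNASEH1-DT. Without overexpression replicate 1 IBA57-DT was kept and IL6ST-DT passed in addition, which had 25.3 and 25.1 CPM in control and 26.3 and 13.7 CPM in overexpression, so that the overexpression libraries stood on different sides of the control level. Without overexpression replicate 2 no -DT promoter passed (edgeR), with 20 at an unadjusted p under 0.05, and IBA57-DT had an adjusted p of 0.0536.

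The scaling also set the calls. With upper quartile scaling 3 passed, 1 higher and 2 lower, where 2.11% of all promoters passed. A loess curve that removes the trend of fold change with abundance left no -DT promoter past the threshold (edgeR), with 13 at an unadjusted p under 0.05 and 0.231% of all promoters called. Under it IBA57-DT had a log2 fold change of −0.33 and an adjusted p of 0.203. Scaling by library totals alone, mitochondrial counts included, made 134 of the 143 lower and none higher, where 69.7% of all promoters passed, 51 higher and 16268 lower. DESeq2 gave an adjusted p for 33 of the 143 and called IBA57-DT. It called 0.461% of all 23407 promoters, a base that includes those without an adjusted p. With the mitochondrial rows left out before scaling, the same 8 lower promoters passed and TMEM269-DT did not, where 2.47% of all promoters passed.

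Most -DT promoters shifted slightly downward. The median log2 fold change of the 143 was −0.13 (quartiles −0.25 and −0.0062), against 0.0099 over all promoters, −0.13 over the partners and −0.096 over -DT promoters of other chromosomes. For 108 of the 143 (75.5%) it was below 0, against 48.6% of all promoters. The overexpression values were both under the control values at 70 of the 143 (49.0%) and both over them at 13 (9.09%), where 24.9% and 24.8% of all promoters did. The shares over all promoters given here are not matched for level. Among all promoters in the highest of 4 bins by mean level, 50.4% had both overexpression values under the control values. Over the 129 with a mean of at least 50 counts, overexpression 1 had median log2 ratios of −0.11 to control 1 and −0.095 to control 2. Overexpression 2 had −0.22 and −0.21 to the same controls, and −0.092 to overexpression 1. The overexpression libraries thus differed from each other by nearly as much as overexpression 1 differed from control. The median of all promoters moved to −0.78 with library totals and to 0.090 with the upper quartile, and the -DT median minus that of all promoters was −0.14 in both. Those scalings apply a single factor to each library, so they could hardly alter this difference, and nothing is read from its staying the same. Under loess scaling, which can alter it, the medians were −0.056 for the -DT promoters and −0.0068 for all, a difference of −0.0495.

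The tested promoters were split into 4 bins of equal size by mean level to set like beside like. The highest bin held 67 of the 143 -DT promoters, the next 50, and the lower bins 14 and 12. Median log2 fold changes in the highest bin were −0.16 over its -DT promoters and −0.13 over everything in it, and in the next bin they were −0.090 and −0.054. In the lowest bin they were 0.10 and 0.39. Both overexpression values were under both control values at 65.7% of the -DT promoters and 50.4% of all promoters in the highest bin. In the next bin these shares were 42.0% and 29.9%, in the one below it 21.4% and 11.9%, and in the lowest 16.7% and 7.33%. All 8 that fell lay in the highest bin, where they were 11.9% of the -DT promoters beside 4.44% of all promoters and 7.53% of -DT promoters of other chromosomes. The class was proposed with results of this contrast in view, so nothing is read from these shares either. Under the loess scaling given above, none of the -DT promoters passed. The mitochondrial share of counts and the depth moved with the groups, as given above, and their part in these differences was not tested.

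**Figure D5:**
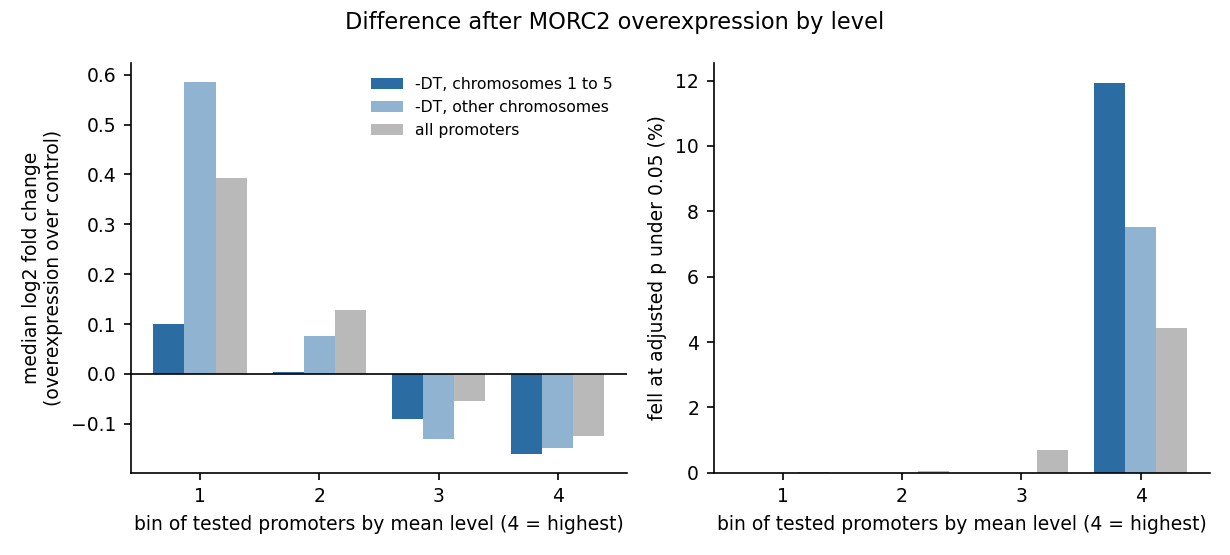
Median log2 fold change of overexpression over control (left) and percent of promoters that fell at an adjusted p under 0.05 (right) in 4 bins of tested promoters by mean level, for -DT promoters of chromosomes 1 to 5, -DT promoters of other chromosomes and all promoters. In the highest bin the medians are −0.16, −0.15 and −0.13, and 11.9%, 7.53% and 4.44% fell.

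Among promoters with a mean of at least 50 counts, those with the largest positive values did not pass. EIF2B5-DT, beside the gene of the catalytic subunit of a translation initiation factor exchange complex, had 14.6 and 12.7 CPM in control and 18.1 and 16.8 CPM in overexpression (log2 fold change 0.36, adjusted p = 0.201). S1PR1-DT, beside a sphingosine 1-phosphate receptor gene, had 15.7 and 13.7 against 18.3 and 17.8 CPM (0.28, adjusted p = 0.319). BRINP3-DT had a log2 fold change of 0.23 and LEMD1-DT of 0.19, and in LEMD1-DT the groups overlapped. All 4 values were negative with scaling by library totals, so their direction depends on the scaling. JUN-DT, among the most accessible, had 74.8 and 72.1 CPM in control and 71.8 and 64.4 CPM in overexpression (log2 fold change −0.095, SE 0.0962, adjusted p = 0.649).

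By role of the partner, in the groups drawn up after the values had been seen, the calls were few, and nothing is read from counts this small beside the 1.30% of all promoters that fell and the 4.44% in the highest bin. Of the 10 tested beside mitochondrial genes 2 fell, IBA57-DT and RNASEH1-DT, and 1 fell in each of the groups for RNA processing and translation (CPEB2-DT), ubiquitin and proteasome (FBXO38-DT), cell cycle and nuclear envelope (NUP133-DT) and transport of solutes (SLC20A1-DT). TMEM18-DT and GPR155-DT also fell and were in no group. None passed among the 20 beside transcription and chromatin genes or the 15 beside signalling genes, where the medians were −0.11 and −0.14. The 11 tested beside neuronal and adhesion genes had a median of 0.069, and 4 of them were below 0.

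The machinery that ends and degrades promoter upstream RNA, together with U1 snRNP, which protects the RNA of the coding direction, was looked at through its own promoters. All 33 such genes, in the NEXT and PAXT exosome adaptors, the restrictor complex, U1 snRNP, Integrator and the cleavage and polyadenylation machinery, were tested. Of these 1 fell and none rose, a share near the 2.47% of all promoters called. Of all promoters 1.30% fell, and of those in the highest bin 4.44%. Past the threshold was INTS6, an Integrator subunit, at −0.44 on the log2 scale (adjusted p = 0.0219). The median of the list was −0.12, with 28 of 33 below 0, against 48.6% of all promoters, and all 33 had control levels above the median of all promoters. Among all promoters the median was −0.13 in the highest bin by mean level and −0.054 in the next, and the median of the list lay between these. The share below 0 was not worked out by bin, so whether the list differs from promoters of like level was not tested. The promoter of MORC2 itself had 16.9 CPM in control and a log2 fold change of −0.14 (adjusted p = 0.695), which does not check the transfection, because a plasmid does not add counts at the chromosomal promoter.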

How the data were processed

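The authors trimmed paired ATAC-seq reads, aligned them to T2T-CHM13 with Bowtie2, filtered them for proper pairs and mapping quality, removed duplicates with Picard and counted fragments by their midpoint. The deposited table held raw counts per promoter, 1 row per Entrez identifier. Whether a row covers the whole 2 kb window around 1 start is an assumption. Peak lists were not used here. Groups were taken from the sample labels.

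Symbols, chromosomes and gene types came from a RefSeq gene table (GRCh38.p14), which named 28763 of 28775 rows. Promoters were kept with filterByExpr and scaled by TMM, and overexpression was compared with control by the quasi-likelihood F-test of edgeR 4.0.16 in its legacy form (R 4.3.3, two-sided), without covariates. P-values were adjusted by Benjamini-Hochberg over 23407 promoters and held against 0.05. Prior degrees of freedom came out infinite, so dispersion was shared between promoters. CPM is the count scaled to a TMM-normalised library total of 1000000, mitochondrial rows included. Tables were made with Python 3.11.15 and pandas 2.3.3.

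The members and lists were chosen with earlier results of these data known. Members named are those past the threshold, the 6 highest and 4 lowest by control level, the 4 largest log2 fold changes each way with a mean of at least 50 counts, and the 4 highest, 4 lowest and 3 most even ratios to the partner among tested pairs. LEMD1-DT, PSMD14-DT and GPM6A-DT as unequal pairs, ATP13A3-DT, IL6ST-DT, ODC1-DT and the ends of the role groups were named after their values were seen. Of these, 1 low promoter is not reported here, nor is 1 marker gene. Sequences of 9 windows were printed, fewer than the rule allowed. Alternatives covered scaling, filters, the test, a replicate block and each library left out.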

Additional observations from a re-analysis of the deposited data

How the results depend on the processing

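Of the 9 -DT promoters past the threshold (1 higher, 8 lower), scaling by library totals gave 134 (0 higher, 134 lower; 69.7% of all promoters passed), upper quartile scaling 3 (2 lower; 2.11% of all), loess on abundance 0 of either sign (0.231% of all), a mean count of at least 50 gave 2 (0 higher, 2 lower; 1.45% of all) and DESeq2 1.42.0 gave 1 (0 higher, 1 lower; 0.461% of all). Without a filter, and without the mitochondrial rows, 0 were higher and 8 lower, where 1.96% and 2.47% of all promoters passed. DESeq2 size factors and the edgeR 4 form called the same 9, where 2.46% and 2.88% of all promoters passed. Leaving out 1 library at a time gave 0 to 2, with 0 higher and 0 to 2 lower, and from 0.404% to 0.854% of all promoters. The replicate numbers did not pair the libraries (the deviations of same-numbered libraries correlated at 0.05 over 14976 promoters), and with a replicate block 6 passed, 0 higher and 6 lower, where 2.08% of all promoters passed.

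The median log2 fold change of the -DT promoters, −0.13, was −0.93 with library totals, −0.049 with the upper quartile, −0.056 with loess and −0.062 with a mean count of at least 50, and ranged from −0.20 to −0.11 as each library was left out. With library totals EIF2B5-DT had −0.44, S1PR1-DT −0.51, BRINP3-DT −0.57 and LEMD1-DT −0.60, and LEMD1-DT ranged from −0.063 without overexpression replicate 2 to 0.53 without overexpression replicate 1. The counts of promoters above the median control level (117 to 127) and of pairs within the fold limit (134 to 140) stayed within 1.5 times their main values under each alternative run. The causes of these shifts were not tested. Each group had 2 libraries, and the median -DT promoter had 54 counts in the shallowest, which limits the precision of single values.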
